A study of Homo sapiens with 4 samples.

Results

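The chromatin regulators are 45 genes that encode enzymes and complex subunits which write, erase or read out histone marks, move nucleosomes, or add and oxidise methyl groups on DNA. They were chosen by symbol, as the probe sets that the annotation of the array platform pairs with these 45 gene symbols. All 45 had at least 1 probe set, 145 of the 54675 on the array, and they are 45 of the 19775 genes with a value. RNA came from Lu139 and NCI-H209, established human small cell lung cancer lines, each electroporated with siRNA against TTF-1 (siTTF-1) or with control siRNA (siNTC). TTF-1, the product of NKX2-1, is a homeodomain factor that controls genes of lung and thyroid. The 4 groups are therefore Lu139 siTTF-1, Lu139 siNTC, NCI-H209 siTTF-1 and NCI-H209 siNTC, with 1 Affymetrix array each. The sources used here do not give the time between electroporation and RNA extraction. Each line is a single tumour's culture, and the siRNA effect is replicated in no other way than by using 2 lines. Its p-values rest on how far that effect differs between the lines, with 1 residual degree of freedom. A further 5.91 prior degrees of freedom come from the variance trend over all tested genes. Part of the spread may be technical.

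Chromatin regulators act on the packaging of DNA rather than on a single gene. Polycomb repressive complex 2 methylates histone H3 to keep genes silent, acetyltransferases and deacetylases add and remove acetyl groups, and SWI/SNF, ISWI and CHD complexes use ATP to slide or evict nucleosomes. DNA methyltransferases and TET dioxygenases set and remove cytosine methylation. In small cell lung cancer, mutations in CREBBP, EP300 and histone methyltransferase genes are recurrent, EZH2 is abundant, and KDM1A has been pursued as a drug target.

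The 4 arrays had median probe set intensities of 48.4 to 57.7. NKX2-1, read by its brighter probe set, had an intensity of 461 in Lu139 siTTF-1 against 780 in Lu139 siNTC, and of 243 in NCI-H209 siTTF-1 against 596 in NCI-H209 siNTC, that is 59.1% and 40.7% of the control. Of the small cell lung cancer markers with a probe set, INSM1, CHGA, SYP, NCAM1, DLL3 and NKX2-1 were above the expression limit, and POU2F3 and YAP1, which mark other forms of the disease, were under it. Markers of leukocytes, endothelium and fibroblasts were split. PTPRC, CDH5, COL1A2, COL3A1, LUM and LYZ were under the limit, and COL1A1, DCN, CD3E, VWF and PECAM1 were above it. Summed over 5 genes, the fibroblast markers had 422 to 495 on the siTTF-1 arrays and 382 to 446 on the siNTC arrays. In the same order the leukocyte markers had 114 to 115 against 92.5 to 101, and the endothelial markers 215 to 228 against 169 to 209.5. The part of these markers in the results was not tested.

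The first comparison asked which chromatin regulators differed after siTTF-1 in each line. Most were slightly lower and few moved far. In Lu139 no member was 1.5-fold lower or higher, where 0.936% of 13996 genes above the expression limit were 1.5-fold lower and 0.193% were 1.5-fold higher. In NCI-H209, SMARCC1, HDAC2 and TET1 were 1.5-fold lower, 3 of 42 members above the limit against 3.52% of 14632 genes, and none was 1.5-fold higher, against 1.09%. Each gene is read here by its brightest probe set. Over all 115 member probe sets above the limit, 2 were 1.5-fold lower in Lu139 (226123_at of CHD7 and 214862_x_at of TET1, against 1.05% of 27382 probe sets of genes) and 6 in NCI-H209 (against 3.66%), all 6 of SMARCC1, HDAC2 and TET1. With 1 array per group these within-line sizes have no test.

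Fold changes are siTTF-1 over siNTC on the scale log2(intensity + 18.7), which understates the change of dim genes. A gene was taken as above the expression limit in a line where its mean there exceeded 5.80, an intensity of 37.0. That held for 44 members in Lu139, all but HDAC7, and for 42 in NCI-H209, all but CREBBP, SMARCD3 and HDAC9. The median fold change of the members was -0.08 in Lu139, against 0.03 for all genes above the limit, and -0.13 in NCI-H209, against 0.01. In Lu139, 31 members were lower and 13 higher, where 40.7% of all genes were lower. In NCI-H209, 33 were lower and 9 higher, where 47.3% of all genes were lower. Of the 41 members above the limit in both lines, 23 were lower in both (56.1%, against 27.5% of 13306 genes), 3 were higher in both (SMARCD1, SMARCD2 and HDAC5, against 37.7% of all genes) and 15 went opposite ways. In RNA from a whole culture, fewer cells of a type and less RNA per cell cannot be told apart.

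**Figure D1:**
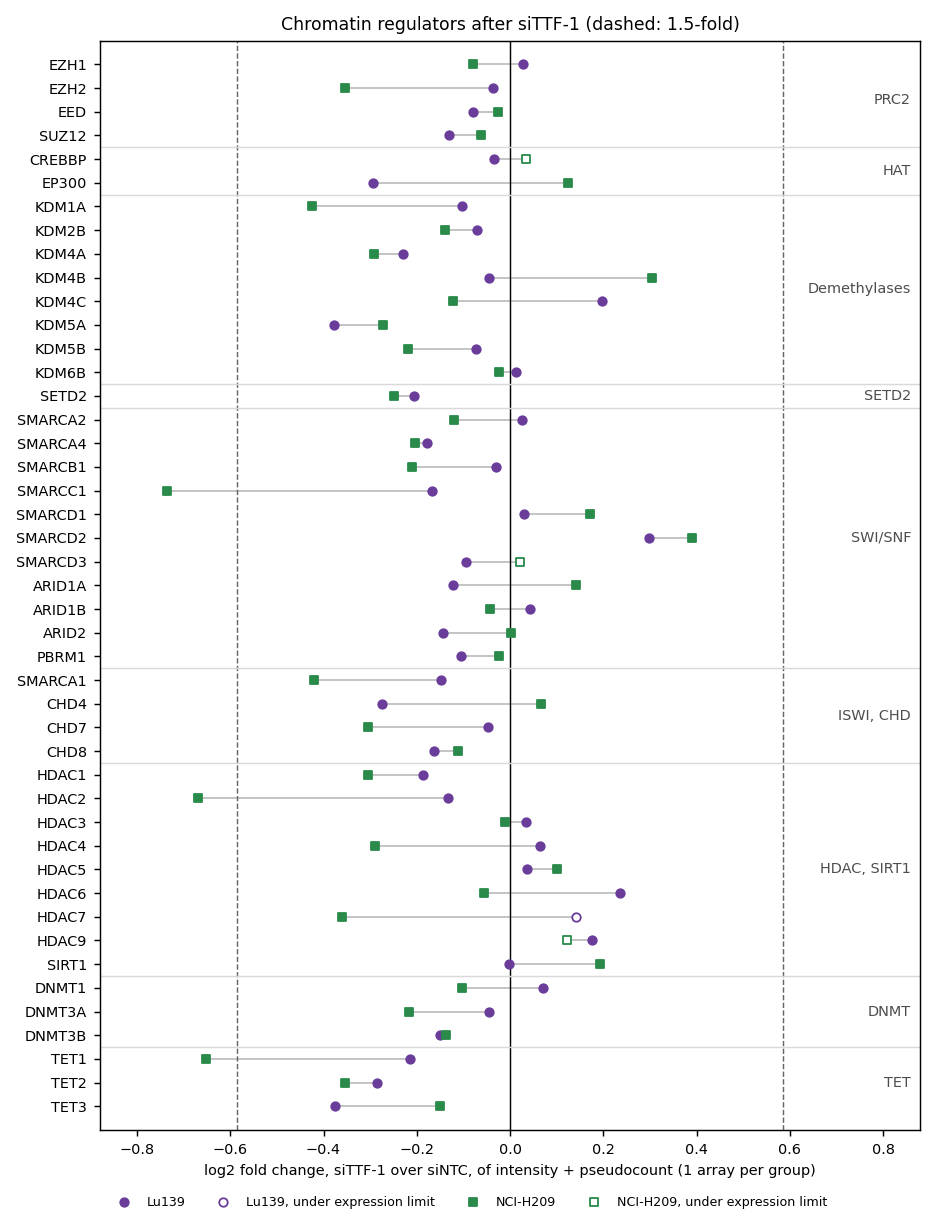
Log2 fold change, siTTF-1 over siNTC, of the 45 chromatin regulators on the horizontal axis, with 1 row per gene grouped by role. Circles are Lu139 and squares NCI-H209, 1 array per group, open where the gene was under the expression limit, and dashed lines mark 1.5-fold. SMARCC1, HDAC2 and TET1 lie beyond the lower dashed line in NCI-H209 alone, and SMARCD2 lies at 0.30 and 0.39.

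Across both lines, limma called no member at a Benjamini-Hochberg adjusted p under 0.05, and no gene of the 14547 tested in either direction. The smallest adjusted p of a member was 0.174, for SMARCD2. At an unadjusted p under 0.05, 11 of the 44 tested members were lower (25%, against 9.25% of all genes tested) and 1 was higher (against 7.23%). The 11 were KDM1A, KDM4A, KDM5A, SMARCA4, SMARCC1, SMARCA1, HDAC1, HDAC2, TET1, TET2 and TET3, and the higher one was SMARCD2. None of these is called changed below, since none passed the adjustment.

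By the mean of the lines on the brightest probe set, the SWI/SNF complex held both the lowest and the highest member, while KDM5A was lowest in Lu139 alone and TET1 was lower than SMARCC1 when probe sets were averaged. SMARCC1, a core scaffold subunit read by 201074_at, had an intensity of 1721 in Lu139 siTTF-1 against 1934 in Lu139 siNTC, and of 965 in NCI-H209 siTTF-1 against 1620 in NCI-H209 siNTC. The NCI-H209 siTTF-1 array was the lowest of the 4, at 59.6% of its control, while Lu139 siTTF-1 stood at 89.0%. The mean log2 fold change of the lines was -0.45 ± 0.40 (SD, n = 2 lines), with a 95% confidence interval of -0.78 to -0.12 and an adjusted p of 0.207 in limma. All 4 SMARCC1 probe sets were lower in both lines, by -0.24 to -0.07 in Lu139 and by -0.76 to -0.37 in NCI-H209.

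SMARCD2, a subunit that takes the same place in the complex as SMARCD1 or SMARCD3 and was read by 201827_at, had an intensity of 951 in Lu139 siTTF-1 against 770 in Lu139 siNTC, and of 1673 in NCI-H209 siTTF-1 against 1272 in NCI-H209 siNTC. The siTTF-1 array was the higher one in each line. The log2 fold change averaged 0.34 ± 0.07 over the lines (SD, n = 2; 95% confidence interval 0.12 to 0.56; limma adjusted p = 0.174). SMARCD1 was at 693 in Lu139 siTTF-1 against 679 in Lu139 siNTC and at 391 in NCI-H209 siTTF-1 against 346 in NCI-H209 siNTC, a small difference in the same direction. SMARCD3 differed by -0.09 in Lu139 and was under the expression limit in NCI-H209.

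The ATPase SMARCA4 had log2 fold changes of -0.18 in Lu139 and -0.20 in NCI-H209 (limma adjusted p = 0.271), and 6 of its 8 probe sets above the limit were lower in both lines while 1 was higher in both. The alternative ATPase SMARCA2 had 0.03 and -0.12, and the core subunit SMARCB1 -0.03 and -0.21, in Lu139 and NCI-H209. On their brightest probe sets the DNA-binding subunits of the canonical complex had small values of opposite sign in the lines, ARID1A -0.12 in Lu139 and 0.14 in NCI-H209, and ARID1B 0.04 and -0.04. Other probe sets differed from that: 210649_s_at of ARID1A had -0.18 and -0.24, and 238043_at of ARID1B had -0.28 and -0.37. ARID2 and PBRM1, which mark the PBAF form, had -0.14 and -0.11 in Lu139 and 0.00 and -0.02 in NCI-H209. The other ARID2 probe set above the limit, 225486_at, had -0.12 in Lu139 and -0.43 in NCI-H209. Of the 11 SWI/SNF members, 4 were lower in both lines and 2 higher in both, against 27.5% and 37.7% of all genes, so the share lower was near that of all genes.

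The histone deacetylases were split. HDAC2, a catalytic subunit shared by the NuRD, SIN3 and CoREST corepressors and read by 201833_at, had an intensity of 4911 in Lu139 siTTF-1 against 5388 in Lu139 siNTC, and of 2457 in NCI-H209 siTTF-1 against 3916 in NCI-H209 siNTC. Again NCI-H209 siTTF-1 was the lowest array, at 62.7% of its control, with Lu139 siTTF-1 at 91.1%. The log2 fold change averaged -0.40 ± 0.38 over the lines (SD, n = 2; 95% confidence interval -0.69 to -0.11; limma adjusted p = 0.205). The second HDAC2 probe set was also lower in both lines but by -0.31 in NCI-H209, short of 1.5-fold. HDAC1, the close paralog of HDAC2 in the same complexes, had 1748 in Lu139 siTTF-1 against 1994 in Lu139 siNTC and 3975 in NCI-H209 siTTF-1 against 4916 in NCI-H209 siNTC (limma adjusted p = 0.209).

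HDAC3, the deacetylase of the NCoR complex, differed by 0.03 in Lu139 and -0.01 in NCI-H209. Among the class II enzymes, which shuttle between nucleus and cytoplasm, HDAC4 had 0.06 and -0.29, HDAC5 had 0.04 and 0.10, and the tubulin deacetylase HDAC6 had 0.24 and -0.06 in Lu139 and NCI-H209. HDAC7 was under the limit in Lu139 and had -0.36 in NCI-H209, and HDAC9 was under it in NCI-H209 and had 0.18 in Lu139. The NAD-dependent deacetylase SIRT1 was at 461 on both Lu139 arrays and at 1131 in NCI-H209 siTTF-1 against 987 in NCI-H209 siNTC. No deacetylase other than HDAC1 and HDAC2 was lower in both lines among the 7 above the limit in both. Of the 13306 genes above the limit in both, 27.5% were lower in both lines.

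All 3 TET dioxygenases, which oxidise methylated cytosine, were lower on the siTTF-1 array of each line, against 27.5% of 13306 genes. TET1, read by 228906_at, had an intensity of 135 in Lu139 siTTF-1 against 160 in Lu139 siNTC, and of 108 in NCI-H209 siTTF-1 against 181 in NCI-H209 siNTC. TET2 had 322 against 396 in Lu139 and 331 against 428 in NCI-H209, siTTF-1 against siNTC. TET3 had 1211 against 1576 in Lu139 and 1171 against 1302 in NCI-H209 in the same order. TET1 and TET2 were lower by more in NCI-H209 and TET3 by more in Lu139. Their mean log2 fold changes were -0.43 ± 0.31 for TET1, -0.32 ± 0.05 for TET2 and -0.26 ± 0.16 for TET3 (SD, n = 2 lines), with limma adjusted p of 0.198, 0.216 and 0.262. Each TET gene had a second probe set above the limit that was lower in both lines. The second TET1 probe set, whose name marks probes that may bind other transcripts, had -0.76 in Lu139, where the main one had -0.21.

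The DNA methyltransferases did not share a direction. The maintenance enzyme DNMT1 had log2 fold changes of 0.07 in Lu139 and -0.10 in NCI-H209. The de novo enzymes DNMT3A and DNMT3B had -0.05 and -0.15 in Lu139 and -0.22 and -0.14 in NCI-H209.

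**Figure D2:**
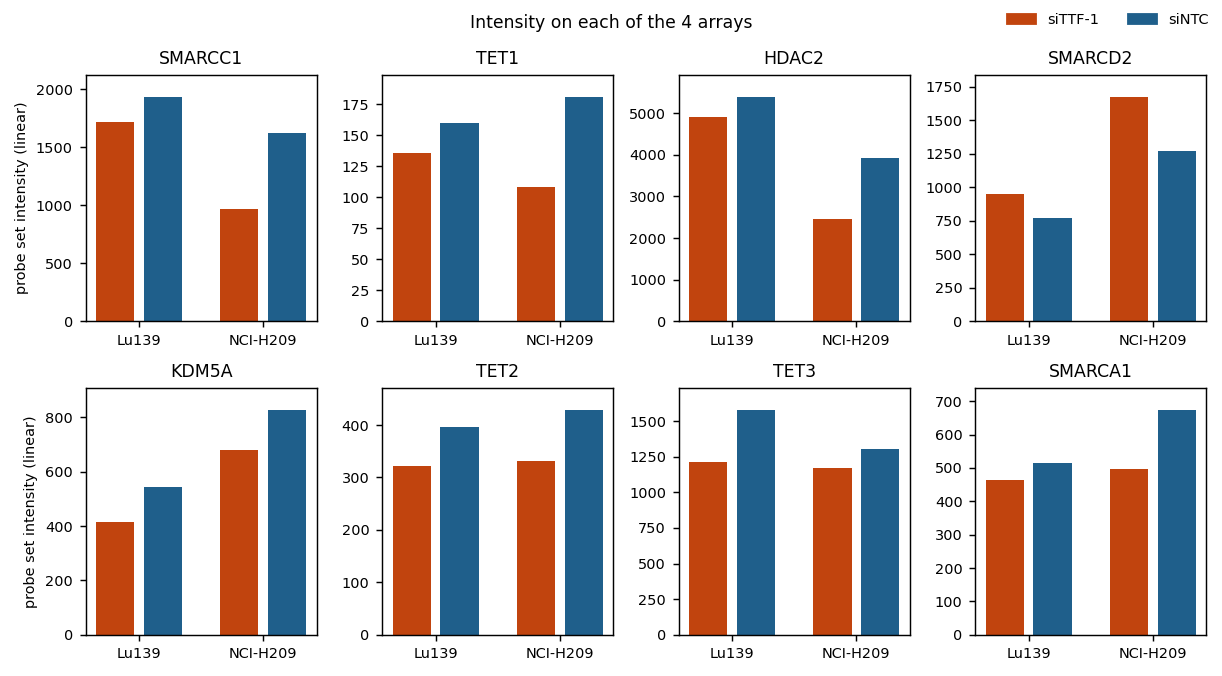
Probe set intensity (linear, from 0) of 8 chromatin regulators on each of the 4 arrays, with siTTF-1 left of siNTC in each line. Each bar is 1 array. The siTTF-1 bar is the lower one in both lines for every gene drawn except SMARCD2, where it is the higher one. The genes are the 8 with the largest mean change of like sign, with TET3 drawn in place of KDM1A. Like direction in both lines thus follows from the choice.

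Among the histone demethylases, KDM5A had the lowest mean fold change. This enzyme removes methyl groups that mark active promoters. Its brightest probe set, 202040_s_at, had an intensity of 415 in Lu139 siTTF-1 against 545 in Lu139 siNTC, and of 681 in NCI-H209 siTTF-1 against 826 in NCI-H209 siNTC. The siTTF-1 array was the lower one in each line, with a mean log2 fold change of -0.32 ± 0.07 (SD, n = 2 lines; 95% confidence interval -0.56 to -0.09; limma adjusted p = 0.210). All 5 KDM5A probe sets were above the limit and lower in both lines, by -0.38 to -0.12 in Lu139 and by -0.31 to -0.19 in NCI-H209. Its paralog KDM5B had -0.07 in Lu139 and -0.22 in NCI-H209.

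KDM1A, also called LSD1, the flavin-dependent demethylase of the CoREST complex, had 3970 in Lu139 siTTF-1 against 4264 in Lu139 siNTC, and 813 in NCI-H209 siTTF-1 against 1098 in NCI-H209 siNTC. It was lower in each line, with log2 fold changes of -0.10 and -0.42 in Lu139 and NCI-H209 (limma adjusted p = 0.274). Ordered by fold change in NCI-H209, KDM1A at -0.42 was the first member outside 1.5-fold, with SMARCA1 next at -0.42, and TET1 at -0.65 was the last inside it. KDM4A, a demethylase of repressive and transcription-linked histone marks, had 314 in Lu139 siTTF-1 against 372 in Lu139 siNTC and 765 in NCI-H209 siTTF-1 against 940 in NCI-H209 siNTC. Its paralogs did not follow it in both lines: KDM4B had -0.05 in Lu139 and 0.30 in NCI-H209, and KDM4C had 0.20 and -0.12. KDM2B, which recruits a Polycomb complex to CpG islands, had -0.07 and -0.14, and KDM6B, which removes the Polycomb mark, had 0.01 and -0.02. In all, 5 of the 8 demethylases were lower in both lines and none higher in both, against 27.5% and 37.7% of all genes.

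SETD2, which methylates histone H3 in transcribed gene bodies, had 341 in Lu139 siTTF-1 against 396 in Lu139 siNTC and 357 in NCI-H209 siTTF-1 against 427 in NCI-H209 siNTC (limma adjusted p = 0.318). All 3 of its probe sets were lower in both lines. In Polycomb repressive complex 2, the catalytic subunit EZH2 had 1919 in Lu139 siTTF-1 against 1967 in Lu139 siNTC and 1483 in NCI-H209 siTTF-1 against 1900 in NCI-H209 siNTC (limma adjusted p = 0.380). NCI-H209 siTTF-1 was the lowest array for EZH2, and the other 3 lay close together. The alternative catalytic subunit EZH1 had log2 fold changes of 0.03 and -0.08, and the core subunits EED and SUZ12 had -0.08 and -0.13 in Lu139 and -0.03 and -0.06 in NCI-H209. The acetyltransferase EP300 had 166 in Lu139 siTTF-1 against 207 in Lu139 siNTC and 400 in NCI-H209 siTTF-1 against 366 in NCI-H209 siNTC, so its directions were opposite. Its paralog CREBBP had -0.03 in Lu139.

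Of the ATP-dependent remodellers outside SWI/SNF, SMARCA1, an ISWI ATPase, had 463 in Lu139 siTTF-1 against 516 in Lu139 siNTC and 498 in NCI-H209 siTTF-1 against 673 in NCI-H209 siNTC. NCI-H209 siNTC was the highest array, and all 3 SMARCA1 probe sets above the limit were lower in both lines (limma adjusted p = 0.280). CHD7, mutated in CHARGE syndrome, had log2 fold changes of -0.05 in Lu139 and -0.30 in NCI-H209 on its brightest probe set. Its probe set 226123_at had 860 in Lu139 siTTF-1 against 1363 in Lu139 siNTC (63.1% of the control) and 454 in NCI-H209 siTTF-1 against 518 in NCI-H209 siNTC, so the size of the CHD7 difference in Lu139 depended on the probe set. CHD8, mutated in autism, had -0.16 in Lu139 and -0.11 in NCI-H209. CHD4, the NuRD ATPase, had -0.28 in Lu139 and 0.07 in NCI-H209.

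**Figure D3:**
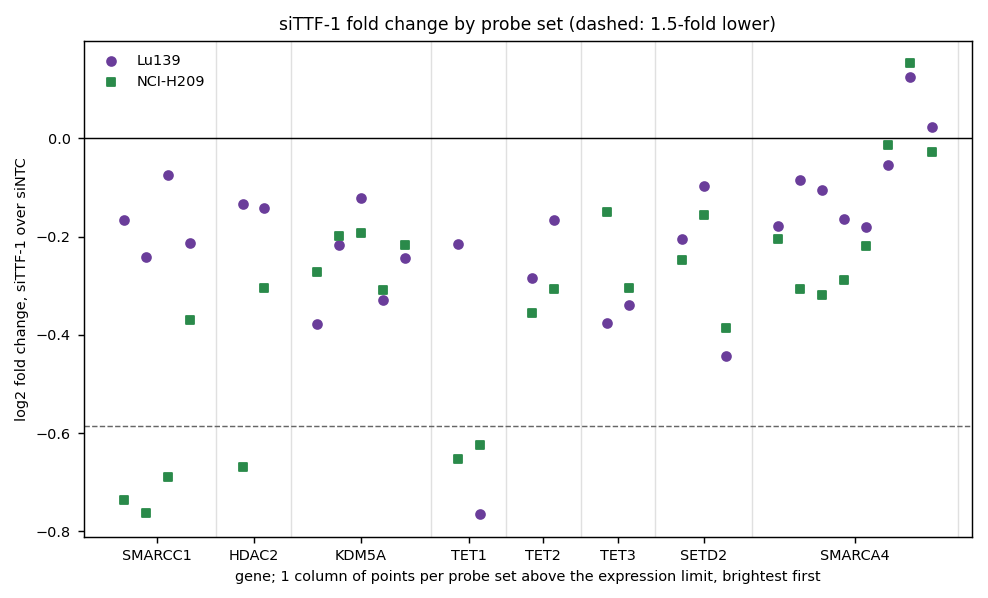
Log2 fold change, siTTF-1 over siNTC, of every probe set above the expression limit of 8 chromatin regulators, 1 column of points per probe set, brightest first. Circles are Lu139 and squares NCI-H209, and the dashed line marks 1.5-fold lower. Every probe set drawn lies below 0 in both lines except 2 of SMARCA4, and of the 2 HDAC2 probe sets 1 passes the dashed line in NCI-H209. The 8 genes were chosen with their values known. Members whose probe sets disagreed, such as ARID1A, ARID1B and KDM4B, are not drawn.

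Read probe set by probe set, 64 of the 115 member probe sets above the limit were lower in both lines (55.7%, against 28.2% of 27382 probe sets of genes), and 15 were higher in both, against 34.9% of all. Probe sets of 1 gene share transcripts and are not replicates. Of 16 proliferation genes tested none passed the adjustment in limma, 9 were lower in both lines (against 27.5% of all genes) and 5 were lower at an unadjusted p under 0.05 (against 9.25%), with medians of -0.07 in Lu139 and -0.16 in NCI-H209. Their summed intensity was 45967 in Lu139 siTTF-1 against 50044 in Lu139 siNTC and 60707 in NCI-H209 siTTF-1 against 69724 in NCI-H209 siNTC. BIRC5, which encodes survivin, had -0.70 and -1.02, and the part of proliferation in the members' values was not tested.

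The promoter windows of 3 members are shown because these genes have a single annotated start and differ in the result: HDAC2 was past 1.5-fold in NCI-H209, KDM5A was lower on every probe set, and SMARCB1 is the one of the 3 that holds letters of the TTF-1 core. Each is the 250 bases before the start, 5′ to 3′ on the gene's strand, from RefSeq on GRCh38.p14. They lie at chr6:113971149-113971398 on the minus strand for HDAC2, chr12:389321-389570 on the minus strand for KDM5A and chr22:23786716-23786965 on the plus strand for SMARCB1. Capitals mark a match to CTCAAG on either strand.
HDAC2: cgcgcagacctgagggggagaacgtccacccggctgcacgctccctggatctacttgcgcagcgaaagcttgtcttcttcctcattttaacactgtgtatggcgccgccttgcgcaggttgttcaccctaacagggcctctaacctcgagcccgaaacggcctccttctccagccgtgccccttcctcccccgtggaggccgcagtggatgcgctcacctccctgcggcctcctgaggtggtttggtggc
KDM5A: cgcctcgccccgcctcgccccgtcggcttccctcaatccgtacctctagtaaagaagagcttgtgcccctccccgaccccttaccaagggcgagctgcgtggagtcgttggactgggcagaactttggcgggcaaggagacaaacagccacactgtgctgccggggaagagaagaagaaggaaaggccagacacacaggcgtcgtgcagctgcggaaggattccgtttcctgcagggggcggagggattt
SMARCB1: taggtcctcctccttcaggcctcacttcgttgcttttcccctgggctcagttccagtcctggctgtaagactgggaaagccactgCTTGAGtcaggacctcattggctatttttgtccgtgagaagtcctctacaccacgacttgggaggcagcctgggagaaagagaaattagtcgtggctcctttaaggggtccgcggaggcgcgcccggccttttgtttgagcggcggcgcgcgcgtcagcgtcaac
The letters CTCAAG and TCAAGTG, taken from the core that TTF-1 is known to bind, were searched on both strands, and overlapping matches of both would each count. SMARCB1 held CTTGAG, the reverse complement of CTCAAG, with its first base 165 bases before the start, and HDAC2 and KDM5A held neither. CTCAAG was in 5 of the 76 windows of 41 member genes (6.58%, in DNMT3A, HDAC6, HDAC9, SMARCA2 and SMARCB1), against 10.4% of 35116 windows of all genes. TCAAGTG was in 1 of 76 (1.32%, in DNMT3A), against 2.06%. The member windows held a median of 21 CG dinucleotides, against 11 over all windows. ARID2, SMARCC1, CHD7 and HDAC5 had no window. A match is a description of letters in this window, and binding was not measured.

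The second comparison asked how the level of each regulator differed between the lines, from the same limma fit with the siRNA as a term. The 2 arrays of a line, which carry different siRNAs, stand in for replicates of its level. The p-values therefore do not measure a spread between cultures of a line. Most members were called, as were most genes tested. An adjusted p under 0.05 was reached by 33 of the 44 tested members (75%, against 70.5% of all genes), 16 higher in Lu139 (against 18.7%) and 17 lower in Lu139 (against 51.7%). At least 2-fold, 6 members were higher in Lu139 (13.6%, against 5.4% of all genes) and 8 were lower in Lu139 (18.2%, against 20.2%). The split depends on scaling. The median difference over all genes, Lu139 minus NCI-H209, was -0.28, and the members' median was -0.01. With quantile normalization over the 4 arrays the all-gene median was 0.04 and the members split 27 higher and 11 lower, and with each array centred on its median they split 24 and 13. Of the 11 members not called, 10 were called with that quantile normalization (SMARCA1 was not) and 8 with centring (SMARCA1, SETD2 and CHD8 were not). With probe sets averaged, 3 of the 11 were called (SETD2, SMARCA1 and TET2). The 14 members at 2-fold kept their direction and adjusted call under every setting run with a line term, but not always the 2-fold size, which 9 kept with quantile normalization over the 4 arrays, 10 with centring and 7 with probe sets averaged.

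CREBBP differed most. This acetyltransferase, read by 202160_at, had an intensity of 696 in Lu139 siTTF-1 and 713 in Lu139 siNTC, against 9.09 in NCI-H209 siTTF-1 and 8.43 in NCI-H209 siNTC. It was well above the limit on both Lu139 arrays and under it on both NCI-H209 arrays. Set against the expression limit, it was at least 13.0-fold higher in Lu139 (limma adjusted p = 1.88e-07). A second probe set, 228177_at, had 217 and 245 in Lu139 against 39.7 and 44.4 in NCI-H209, siTTF-1 then siNTC, a log2 difference of 2.04. The remaining 2 were dim in both lines, at 42.5 to 46.1 and at 20.9 to 23.8, and showed no such difference. EP300 was 1.97-fold lower in Lu139, with 166 and 207 in Lu139 against 400 and 366 in NCI-H209 (limma adjusted p = 0.000371), and both its probe sets were lower in Lu139.

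SMARCD3, the SWI/SNF subunit of heart and neural complexes, had 251 in Lu139 siTTF-1 and 269 in Lu139 siNTC, against 31.3 in NCI-H209 siTTF-1 and 30.5 in NCI-H209 siNTC. It was under the limit in NCI-H209 and at least 5.0-fold higher in Lu139 (limma adjusted p = 1.17e-06). Among the ATPases SMARCA2, read by 217707_x_at, had 97.4 in Lu139 siTTF-1 and 95.4 in Lu139 siNTC, against 551 in NCI-H209 siTTF-1 and 601 in NCI-H209 siNTC. It was 5.16-fold lower in Lu139 (limma adjusted p = 2.07e-06), on all 7 of its probe sets, whose log2 differences ran from -2.37 to -0.38. Its alternative SMARCA4 was higher in Lu139 by 0.28 on the log2 scale (limma adjusted p = 0.0107). Of the 8 SMARCA4 probe sets above the limit 7 were higher in Lu139, with a range of -0.76 to 0.65. SMARCA4 was not called with probe sets averaged or without the siRNA term.

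ARID1A and ARID1B, which replace each other in the complex, differed in opposite directions. ARID1A had 2293 in Lu139 siTTF-1 and 2497 in Lu139 siNTC, against 995 in NCI-H209 siTTF-1 and 901 in NCI-H209 siNTC, a log2 difference of 1.32 (limma adjusted p = 2.17e-05). ARID1B had 455 and 441 in Lu139 against 1447 and 1491 in NCI-H209, siTTF-1 then siNTC, and was 3.19-fold lower in Lu139 (limma adjusted p = 6.63e-06). All 4 ARID1A probe sets were higher in Lu139, from 0.12 to 1.32. The 6 ARID1B probe sets above the limit disagreed, with 4 lower and 2 higher in Lu139, from -1.67 to 0.52, and averaging all its probe sets gave a difference of -0.43. SMARCD1 (0.87) and SMARCC1 (0.54) were higher in Lu139, SMARCD2 (-0.76) and ARID2 (-0.41) lower, and SMARCB1 and PBRM1 were not called. The sign of SMARCC1 depended on the probe set (-0.72 to 0.54), and that of ARID2 turned under quantile normalization over the 4 arrays.

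CHD7, read by 218829_s_at, had 5111 in Lu139 siTTF-1 and 5281 in Lu139 siNTC, against 896 in NCI-H209 siTTF-1 and 1111 in NCI-H209 siNTC. It was 5.13-fold higher in Lu139 (limma adjusted p = 1.28e-06), on all 3 probe sets above the limit, from 1.13 to 2.36. CHD4 had 732 and 890 in Lu139 against 2144 and 2045 in NCI-H209, siTTF-1 then siNTC, a log2 difference of -1.36 (limma adjusted p = 3.13e-05). Its 3 probe sets ran from -1.36 to 0.05, so the sign of CHD4 depended on the probe set. SMARCA1 and CHD8 were not called.

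KDM1A had 3970 and 4264 in Lu139 against 813 and 1098 in NCI-H209, siTTF-1 then siNTC, and was 4.29-fold higher in Lu139 (limma adjusted p = 3.03e-06). KDM4A was lower in Lu139 by -1.27 (limma adjusted p = 2.81e-05) and KDM4B by -1.24 (limma adjusted p = 5.75e-05). The other KDM4A probe set, 203205_at, had -0.19. Both genes fell under 2-fold with probe sets averaged, with quantile normalization over the 4 arrays and with centring. KDM4B had 692 and 714 in Lu139 against 1870 and 1511 in NCI-H209, siTTF-1 then siNTC, and 5 of its 7 probe sets above the limit were lower in Lu139. KDM4C (-0.91) and KDM5A (-0.64) were also lower in Lu139, while KDM5B (0.79) and KDM6B (0.87) were higher and KDM2B was not called. KDM5A was no longer called under quantile normalization over the 4 arrays. KDM4C was no longer called, or no longer tested, with probe sets averaged. In Polycomb repressive complex 2, EZH1 was higher in Lu139 by 0.84, EED was lower by -0.42 and SUZ12 by -0.19, and EZH2 was not called (limma adjusted p = 0.105), though it was higher in Lu139 under both other scalings named above. The signs of EED and SUZ12 turned under quantile normalization over the 4 arrays.

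HDAC4 had 110 in Lu139 siTTF-1 and 105 in Lu139 siNTC, against 313 in NCI-H209 siTTF-1 and 387 in NCI-H209 siNTC, a log2 difference of -1.54 (limma adjusted p = 2.62e-05). HDAC1 was lower in Lu139 by -1.24, SIRT1 by -1.17 and HDAC6 by -0.48. With quantile normalization over the 4 arrays and with centring, HDAC1 and SIRT1 fell under 2-fold and HDAC6 was no longer called. HDAC7, under the limit in Lu139, was at least 1.40-fold higher in NCI-H209 (limma adjusted p = 0.000396). HDAC2 (0.73) and HDAC5 (0.99) were higher in Lu139, and HDAC3 was not called. The second HDAC2 probe set was lower in Lu139 (-0.38), and HDAC2 was not called when its probe sets were averaged. HDAC9 had 54.5 and 46.1 in Lu139 against 22.9 and 19.5 in NCI-H209, siTTF-1 then siNTC, and was too dim for the test. All 3 DNA methyltransferases were higher in Lu139, DNMT3A by 1.12, DNMT1 by 0.31 and DNMT3B by 0.27. DNMT3A had 850 and 878 in Lu139 against 358 and 419 in NCI-H209, siTTF-1 then siNTC (limma adjusted p = 6.25e-05). The 3 TET genes and SETD2 were not called. The TET genes were called higher in Lu139 under both other scalings, and SETD2 under quantile normalization. With probe sets averaged, TET2 and SETD2 were called in the other direction, lower in Lu139. The TET2 probe set 1569385_s_at had a log2 difference of -1.71, lower in Lu139, and the SETD2 probe sets ran from -0.78 to 0.18.

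**Figure D4:**
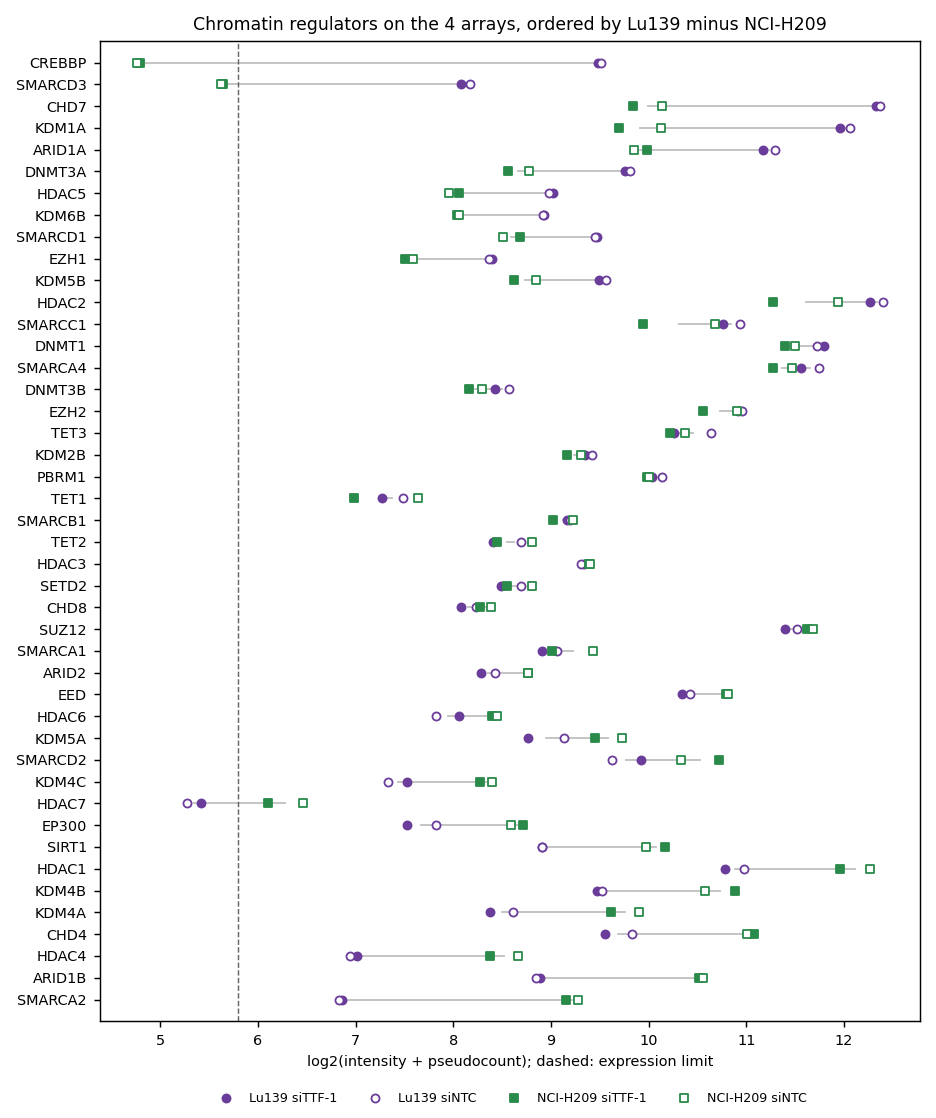
Level of the 44 tested chromatin regulators on the 4 arrays, as log2(intensity + pseudocount), with 1 row per gene ordered by the difference of Lu139 minus NCI-H209. Circles are Lu139 and squares NCI-H209, filled for siTTF-1 and open for siNTC, lines join the means of each line, and the dashed line is the expression limit of 5.80. CREBBP and SMARCD3 lie under the limit in NCI-H209, and SMARCA2 has the largest difference the other way.

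Other chromatin genes were read from 10 lists of complexes and enzyme families. Of 191 listed genes 179 had a probe set and 175 were tested. At an unadjusted p under 0.05, 28 were lower and 6 higher after siTTF-1 (against 9.25% and 7.23% of all genes tested), and none passed the adjustment in limma. Their medians were -0.02 in Lu139 and -0.10 in NCI-H209, and 76 were lower in both lines and 37 higher in both, against 27.5% and 37.7% of all genes. Among the bromodomain readers 5 of 13 were lower at an unadjusted p under 0.05, led by TRIM24, a nuclear receptor cofactor, with -1.02 in Lu139 and -1.53 in NCI-H209 (limma adjusted p = 0.0713). TRIM33 stood highest there among genes of like sign in both lines, with -0.10 and -0.15.

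Of the further BAF and PBAF subunits 3 of 19 were lower and 1 higher at an unadjusted p under 0.05 in limma. All counts in this paragraph are at that level, which 9.25% of all genes tested reached as lower and 7.23% as higher. BCL11A, a zinc finger protein found in BAF complexes, had -0.51 and -1.26 in Lu139 and NCI-H209, and BCL7C had 0.11 and 0.48. Of the further ISWI, CHD and INO80 genes 3 of 21 were lower, with BAZ1A, the ACF partner of ISWI, at -0.24 and -0.98, and CHD5 highest at 0.06 and 0.30. Among further Polycomb genes 2 of 21 were lower and 1 higher, with PCGF5 at -0.68 and -0.96 and PCGF2 at 0.17 and 0.42. Both encode alternative ring finger subunits of Polycomb repressive complex 1.

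The counts that follow are also at an unadjusted p under 0.05 in limma, against 9.25% of all genes tested lower and 7.23% higher. Among further acetyltransferase genes 4 of 18 were lower at that level, with the circadian factor CLOCK at -0.32 and -0.86. EPC1, a NuA4 subunit, had 0.16 and 0.03. Among further methyltransferases 4 of 30 were lower and 1 higher, with SETD7 at -0.22 and -0.62 and PRMT2 at 0.10 and 0.50. None of 14 further demethylases reached an unadjusted p under 0.05 in limma, JMJD1C being lowest at -0.21 and -0.20 and KDM8 highest at 0.12 and 0.18. Of 21 corepressor cofactors 4 were lower and 1 higher, with the NuRD paralogs apart: GATAD2B had -0.42 and -0.54, and GATAD2A had 0.32 and 0.22. Of 8 further deacetylases and sirtuins 1 was lower, SIRT5 at -0.25 and -0.33, and 1 higher, SIRT7 at 0.14 and 0.39. Of 10 further DNA methylation genes 2 were lower and 1 higher, with the glycosylase MBD4 at -0.32 and -0.31 and the metabolic enzyme IDH1 at 0.24 and 0.60.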

How the data were processed

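Total RNA of 4 cell cultures was converted to biotin-labelled cRNA for Affymetrix arrays, per the labels' protocols. The authors deposited probe set intensity values on a linear scale, from 3.03 to 26148. The submitters' processing notes name Affymetrix Expression Console, with neither version, algorithm nor normalization stated. Of the probe sets, 2416 had equal intensities on both NCI-H209 arrays, 2206 on both Lu139 arrays and 0 between lines, so small differences between lines depend on a scaling that is unknown.

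Of 54675 probe sets, 62 controls were left out, 41091 had 1 gene symbol, 1801 several and 11721 none, and 41037 were matched by identifier to RefSeq (GRCh38.p14). A further probe set shared by SUZ12 and its pseudogene was not used. Each gene was read by the probe set of highest mean log2 value. From the deposited intensities log2(intensity + 18.7) was computed, with the 25th percentile as pseudocount, and the expression limit was the 40th percentile. Limma 3.58.1 in R 4.3.3 fitted line and siRNA with a variance trend over 14547 genes (1 residual and 5.91 prior degrees of freedom), two-sided, with Benjamini-Hochberg adjustment over all of them, and was tested on simulated data. Figures used matplotlib 3.10.9 in Python 3.11.15. Where a gene was under the limit in a line, its fold is a bound against that limit.

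Values are given for the members past 1.5-fold, the 8 with the largest mean change of like sign, the 6 with the largest line difference each way, and the lowest and highest gene of each further list. Members and lists were chosen with earlier results of these data known. Alternatives covered pseudocount, filter, probe set choice, normalization, model terms and the variance trend. Precision is limited by the number of arrays.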

Additional observations from a re-analysis of the deposited data

Results flagged for a closer look

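On their brightest probe sets, 7 of the 41 chromatin regulators above the limit in both lines had fold changes of opposite sign after siTTF-1, and the difference between the log2 fold changes, Lu139 minus NCI-H209, exceeded 0.24, the SD of that difference over all genes. The same held for 13.9% of 13306 genes. With 1 array per group the difference was not tested. It was -0.42 for EP300 (-0.29 in Lu139 and 0.12 in NCI-H209), -0.35 for KDM4B (-0.05 and 0.30), -0.34 for CHD4 (-0.28 and 0.07) and -0.26 for ARID1A (-0.12 and 0.14). It was 0.35 for HDAC4 (0.06 and -0.29), 0.32 for KDM4C (0.20 and -0.12) and 0.29 for HDAC6 (0.24 and -0.06). Other probe sets did not all show opposite signs. For HDAC4, 228813_at had -0.14 and -0.48, for ARID1A, 210649_s_at had -0.18 and -0.24, for HDAC6, 216224_s_at had 0.12 and 0.01, and for KDM4B, 216023_at had 0.21 and 0.24, in Lu139 and NCI-H209. The second EP300 probe set and the other 2 of CHD4 had the same signs as the first, and KDM4C had no other above the limit.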

How the results depend on the processing

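No member was called for siTTF-1 at an adjusted p under 0.05 in any limma setting run. Over all genes 49 were lower and 17 higher with quantile normalization over the 4 arrays, 33 and 8 with quantile normalization within each line, 32 and 6 with the limit at the 60th percentile, and 0 otherwise. Members lower at an unadjusted p under 0.05 numbered 9 to 11, but 0 without the line term, and the 12 at that level kept their sign. In NCI-H209 the count at 1.5-fold was 2 to 3: TET1 was lost with the pseudocount doubled and with quantile normalization over the 4 arrays, and HDAC2 with the mean of all probe sets. Between the lines, the siNTC arrays alone gave 17 members at 2-fold with no test, 7 higher and 10 lower in Lu139, where the limma fit had 14 at 2-fold and 33 called with no fold limit. Members called in limma but no longer called, or no longer tested, numbered 5 with quantile normalization over the 4 arrays, 4 with centring and 7 with probe sets averaged. The sign of the line difference turned with quantile normalization over the 4 arrays for EED (0.040), SUZ12 (0.25), SETD2 (0.38), ARID2 (0.050), CHD8 (0.28), HDAC3 (0.39) and TET2 (0.39). It turned with centring for SUZ12 (0.14), HDAC3 (0.26) and TET2 (0.26), and, averaging all probe sets, for SUZ12 (0.18) and SMARCC1 (-0.12); the cause was not tested. Leaving out a line leaves 1 array per group, which gives the within-line values and no test. The labels give no replicate numbers, and the model with a line term already pairs the arrays of a line. Small differences near the expression limit, as for HDAC7 and HDAC9, are limited by signal over background.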

Other observations

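Outside the 45 members, the chromatin genes with the largest differences between the lines, named after their values were seen, were these. Of 175 tested genes of the further lists, 9 were at least 2-fold higher in Lu139 (against 5.4% of all genes) and 30 at least 2-fold lower in Lu139 (against 20.2%). KDM7A, a histone demethylase, had 216 and 207 in Lu139 against 2278 and 1950 in NCI-H209, siTTF-1 then siNTC, and was 9.24-fold lower in Lu139 (limma adjusted p = 6.15e-07). ATRX, a remodeller of heterochromatin, had 657 and 719 in Lu139 against 3522 and 3832 in NCI-H209, and was 5.23-fold lower in Lu139 (limma adjusted p = 8.99e-07). IDH1 had 774 and 650 in Lu139 against 5297 and 3499 in NCI-H209, and was 5.94-fold lower in Lu139 (limma adjusted p = 1.63e-06). BCL11A had 712 and 1019 in Lu139 against 85.9 and 232 in NCI-H209, and was 5.38-fold higher in Lu139 (limma adjusted p = 1.83e-05). ZBTB38, which binds methylated DNA, was under the expression limit in Lu139, with 17.4 and 16.0, against 398 and 438 in NCI-H209.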
